A study of Mus musculus with 56 samples.

Results

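The renin-angiotensin system was followed through 8 kidney transcripts, which are 8 of the 17027 genes in the table. They were chosen by name for their roles in making angiotensin, receiving its signal or cutting it. Kidneys of adult female C57BL/6J mice, 9 weeks old, were profiled by RNA sequencing of poly(A) RNA after 7 days of daytime-restricted feeding (DRF, food by day) or nighttime-restricted feeding (NRF, food by night, the control). All mice had arrived at 7 weeks of age, were housed in groups under 12 h of light and 12 h of dark, and had free access to normal chow and water for 7 days before the regimens began. Sampling ran every 4 h from ZT0 to ZT24, where ZT (zeitgeber time) counts hours from lights on, with 4 libraries in each of the 14 groups of regimen and time. No genetic change or drug was used, and whole-tissue RNA was read, so that fewer cells of a type and less RNA per cell cannot be told apart in any value given here. The labels number the libraries within a group and do not describe the animal behind each, so p-values measure the spread between libraries.

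Renin, made by Ren1 in the juxtaglomerular cells of the afferent arteriole, cuts angiotensinogen, the product of Agt, to angiotensin I. Angiotensin-converting enzyme (Ace) cuts this to angiotensin II, which acts on the type 1a receptor (Agtr1a) to narrow vessels and to hold sodium. Membrane peptidases, abundant on the brush border of the proximal tubule, then break angiotensin peptides down: Enpep (aminopeptidase A) removes the first residue of angiotensin II, Anpep (aminopeptidase N) acts on the product of that step, and Mme (neprilysin) cuts inside several peptides. Atp6ap2 encodes the (pro)renin receptor, which is also an accessory protein of the vacuolar proton pump.

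The recovered reads were 25.4 to 28.1 M per library, and the correlation across genes between libraries of a group was at least 0.969 (median 0.989). Levels below are in TPM, which scales the reads of a gene by its length and by the library, so that levels can be set side by side between genes. Defining markers of kidney were present in all libraries, with summed levels of 5336 to 8793 TPM for 10 proximal tubule genes (2 of them at a gene length that could not be checked) and 236 to 498 TPM for 6 glomerular genes. The 3 adrenal markers in the table summed to 3.32 to 6.14 TPM: Star had a mean of 4.35 TPM and was above 0 in every library, while Cyp11a1 and Hsd3b1 had means of 0.0955 and 0.198 TPM. Adipose markers varied most, from 16.2 to 2712 TPM as a sum of 4 genes, and liver markers summed to 172 to 623 TPM.

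The genes lie on 7 chromosomes (GRCm38, GENCODE M21): Ren1 at chr1:133350510-133360325 (plus strand), Agt at chr8:124556534-124569706 (minus), Ace at chr11:105967945-105989964 (plus), Agtr1a at chr13:30336441-30382867 (plus), Enpep at chr3:129269175-129332720 (minus), Mme at chr3:63241537-63386030 (plus), Anpep at chr7:79821803-79861059 (minus) and Atp6ap2 at chrX:12587801-12617049 (plus). All 8 genes were detected in every library. The mean level over 56 libraries was highest for Anpep with 181 TPM, followed by Atp6ap2 with 166 TPM, Agt with 163 TPM, Ren1 with 153 TPM, Ace with 129 TPM, Enpep with 112 TPM, Mme with 92.6 TPM and Agtr1a with 56.9 TPM. Among the 13274 genes tested, which had a mean of at least 1 TPM, these means ranked from 802 for Anpep to 2605 for Agtr1a. Between 823 reads, for Ren1 in its lowest library, and 13352 reads, for Mme in its highest, lay behind each value. Whole reads were recovered for 7 of the genes. The values of Ren1 fell on hundredths of a read, and 26.8% of them were whole, as an estimate gives when reads are divided between similar transcripts, so the level of Ren1 is uncertain to the extent of that division.

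**Figure D1:**
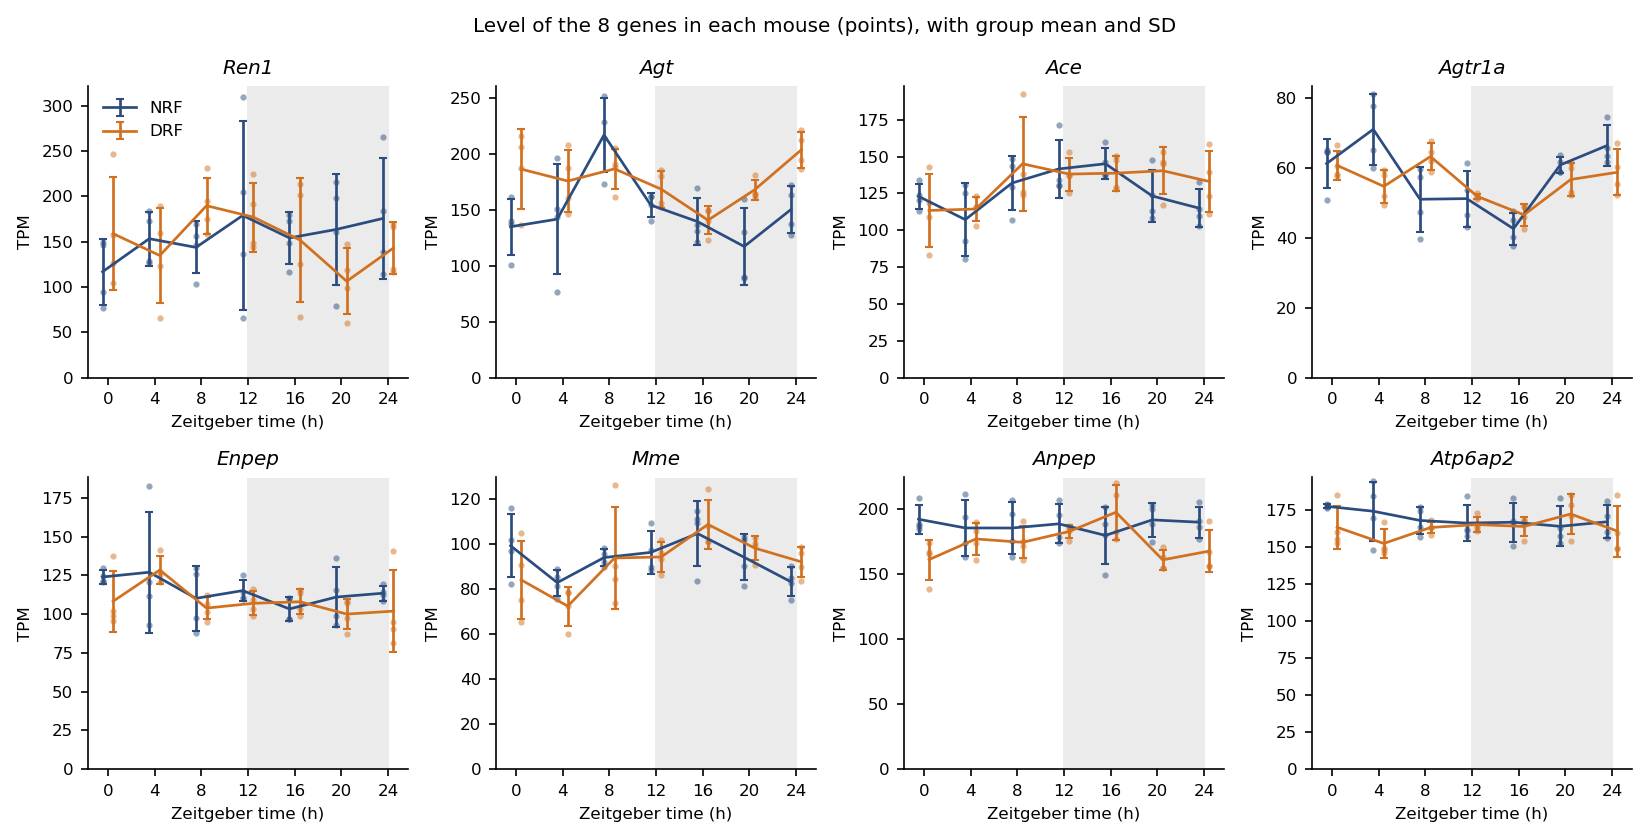
TPM (vertical axis, from 0) against zeitgeber time in hours (horizontal axis, dark period shaded) for the 8 genes. Points are libraries, and lines with bars are group means ± SD (n = 4), with NRF in blue and DRF in orange. Ren1 spread from 60.1 to 309 TPM over libraries, while Atp6ap2 stayed between 146 and 194 TPM.

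To ask whether light or food went with the level of these genes, the 4 time points at which light and food are crossed were compared. Dark groups (ZT16 and ZT20) were set against light groups (ZT4 and ZT8) over both regimens, and groups with food against groups without it, with 16 libraries on each side. The dark groups were also later in the day under both regimens, so light cannot be told apart from time of day. Between dark and light, 3 of the 8 genes passed an adjusted p of 0.05, against 34.8% of all genes tested: Agt and Agtr1a were lower in the dark and Mme was higher. Between fed and fasted, 0 of the 8 passed, against 35.4% of all genes. The adjusted p came from limma with Benjamini-Hochberg adjustment over all 13274 genes, and differences are on the log2(TPM + 1) scale. None of the 8 had an unadjusted p under 0.05 between fed and fasted, and limma-voom also called 0. Over all genes, 9.2% were higher and 25.6% lower in the dark, and 14.1% were higher and 21.4% lower with food. Scaling by median of ratios turned the dark counts of 1221 higher and 3401 lower into 2464 and 2546, and the food counts of 1868 and 2835 into 2738 and 2555.

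Agt, the substrate of renin, ranged in the light from 76.7 to 252 TPM with a median of 188 TPM, and in the dark from 89.0 to 181 TPM with a median of 145 TPM. The ranges overlapped, and the dark libraries were lower on average by 0.33 ± 0.09 (SE) on the log2 scale, or 0.794-fold, with an adjusted p of 0.0027. The difference was -0.44 under NRF, where the dark is the fed time, and -0.23 under DRF, where it is the fasted time. Whether the dark minus light difference depended on the regimen is the same test as the fed minus fasted contrast, which was -0.10 with a 95% interval of -0.28 to 0.07 and an adjusted p of 0.38.

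Agtr1a, the main angiotensin II receptor of the mouse kidney, had 37.6 to 63.7 TPM in the dark with a median of 50.7 TPM, and 39.6 to 81.2 TPM in the light with a median of 59.6 TPM. It fell by 0.21 on the log2 scale from light to dark (SE 0.05, adjusted p = 0.0012), with overlapping ranges. The fall was -0.23 under NRF and -0.19 under DRF. Its fed minus fasted difference was -0.02 with an interval of -0.12 to 0.09.

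Mme went the other way. It had 60.1 to 126 TPM in the light with a median of 85.0 TPM, and 81.3 to 124 TPM in the dark with a median of 101 TPM. The dark libraries were higher by 0.25 ± 0.06 (SE), or 1.19-fold, with an adjusted p of 0.00097. The rise was 0.16 under NRF and 0.34 under DRF, and the fed minus fasted difference of -0.09 had an interval of -0.21 to 0.03.

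The remaining 5 genes were not called. Ace was higher in the dark by 0.15 with an interval of 0.01 to 0.29 and an adjusted p of 0.090. It was called with median-of-ratios scaling, with the deposited values and without replicate 4 (differences of 0.19, 0.19 and 0.21, adjusted p = 0.043, 0.042 and 0.020), and its difference was 0.07 without replicate 3 (adjusted p = 0.57). Enpep was lower by 0.14 in the dark, with values from 87.1 to 136 TPM against 87.9 to 183 TPM in the light and an adjusted p of 0.12. For Anpep and Atp6ap2 both contrasts were small: their dark minus light intervals ran from -0.08 to 0.10 and from -0.05 to 0.09, and their fed minus fasted intervals from -0.10 to 0.08 and from -0.14 to 0.0037. Ren1 had the widest intervals, from -0.52 to 0.20 for dark minus light and from -0.14 to 0.58 for fed minus fasted, so changes of up to these sizes could not be seen.

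**Figure D2:**
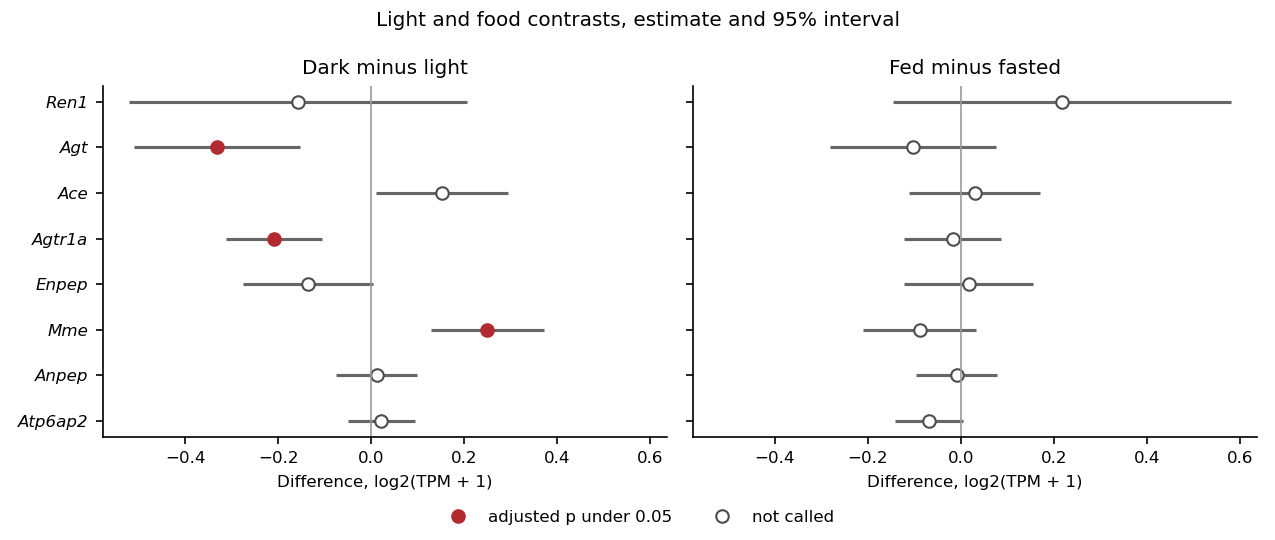
Difference on the log2(TPM + 1) scale (horizontal axis) for each of the 8 genes (vertical axis), dark minus light on the left and fed minus fasted on the right, with 16 libraries a side. Circles are estimates, filled where the adjusted p was under 0.05, and lines are 95% intervals. Agt (-0.33), Agtr1a (-0.21) and Mme (0.25) are filled on the left and no circle is filled on the right.

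Some markers of kidney segments and vessels were also called between dark and light, as were 34.8% of all genes (9.2% higher and 25.6% lower). Of 8 tested proximal tubule markers, 2 were higher and 1 lower in the dark, and their summed level ranged from 6483 to 8313 TPM in the dark and from 5336 to 8793 TPM in the light. Of 5 markers of the thick ascending limb and distal tubule, 2 were higher, and their sum ranged from 4836 to 8711 TPM in the dark and from 3943 to 7789 TPM in the light. Of 6 glomerular markers 1 rose and 1 fell, with sums of 250.4 to 383 TPM in the dark and 236 to 498 TPM in the light. Of 5 markers of the medulla and collecting duct 1 rose and 1 fell, with sums of 611 to 1678 TPM in the dark and 771 to 2051 TPM in the light. Of 5 endothelial markers 2 were higher, with sums of 123 to 268 TPM in the dark and 115 to 260.1 TPM in the light. The part of segment content in the dark minus light differences of Agt, Agtr1a and Mme was not tested.

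The promoters of Agt and Mme are shown because the 2 genes differed between dark and light in opposite directions. They are the 250 bases before a RefSeq transcription start (GRCm38.p6), written in the direction of the gene, and capitals mark matches on either strand to the motifs searched. These were the TATA motif TATAAA, the CCAAT box, the GC box with the letters GGGCGG, the E-box bound by CLOCK and BMAL1 with the letters CACGTG, the D-box with the letters TTATGTAA, and the nuclear receptor half-site, which reads AGGTCA. Mme has 3 listed starts, and the one shown is the first that holds both CCAAT and GGGCGG.
Agt, chr8:124569707-124569956, minus strand: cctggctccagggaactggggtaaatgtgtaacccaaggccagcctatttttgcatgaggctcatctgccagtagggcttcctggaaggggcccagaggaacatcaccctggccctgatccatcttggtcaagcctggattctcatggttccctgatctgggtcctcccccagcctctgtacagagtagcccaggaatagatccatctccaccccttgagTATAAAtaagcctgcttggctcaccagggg
Mme, chr3:63295622-63295871, plus strand: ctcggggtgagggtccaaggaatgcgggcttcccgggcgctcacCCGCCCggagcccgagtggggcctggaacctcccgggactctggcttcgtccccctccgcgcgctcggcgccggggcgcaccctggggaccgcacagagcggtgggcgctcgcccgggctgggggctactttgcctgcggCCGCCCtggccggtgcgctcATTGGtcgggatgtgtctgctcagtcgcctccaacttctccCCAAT

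Agt held TATAAA 30 bases before its start, and Mme held CCAAT 5 bases before it and again, on the other strand, 46 bases before it. Among all 32851 listed promoters of this length, 12.4% held TATAAA, 33.8% CCAAT and 32.7% GGGCGG. The 7 members with a listed promoter had 10 windows, of which 4 held TATAAA (1 each of Ren1, Agt, Ace and Enpep, on the other strand in Ace and Enpep). CCAAT was in 5 of the 10 windows and GGGCGG in 6. The Mme window was picked for holding CCAAT and GGGCGG, so its matches cannot be set against the shares of all promoters. CACGTG was found in 6.02% and TTATGTAA in 0.819% of all promoters, and both in 0 of the 10 windows. The half-site AGGTCA was found in 14% of all promoters and in 1 window of Ace. The absence of a match says only that these letters are not in these 250 bases.

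To describe 24-h rhythms, a cosine was fitted to the 28 libraries of each regimen. Its amplitude is the distance from the fitted mean to the peak on the log2 scale and its phase is the time of the peak. Under NRF, 3 of the 8 genes were called rhythmic (Agt, Ace and Agtr1a), against 53.4% of all genes. Under DRF, 4 were called (Agt, Agtr1a, Anpep and Mme), against 34.7% of all genes. Only Agt passed the test of a difference in rhythm between the regimens, 1 of 8 against 45% of all genes.

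Agtr1a had the strongest rhythm of the 8 by its p-value under NRF, with an amplitude of 0.28 ± 0.05 (SE), a phase of ZT1.83 ± 0.75 h and an adjusted p of 0.00018. Its highest group was NRF ZT4, with 60.05, 65.0, 77.8 and 81.2 TPM, and its lowest was NRF ZT16, with 37.6, 40.1, 45.2 and 47.5 TPM. These groups did not overlap, but they were picked as the extremes. Under DRF the amplitude was 0.14 ± 0.04 and the phase ZT3.51 ± 1.01 h (adjusted p = 0.017). The phases differed by 1.69 ± 1.26 h, and the difference in rhythm was not called (adjusted p = 0.066).

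Agtr1a was also the only member with a 12-h component, under DRF, with an amplitude of 0.14, crests at ZT9.22 and ZT21.2 and an adjusted p of 0.0035. Such components were called in 25.3% of all genes under DRF and in 0.625% under NRF, where 0 of the 8 passed by limma, with 0 at an unadjusted p under 0.05 and 0 by limma-voom. The DRF means of Agtr1a (SD, n = 4) were 60.7 ± 4.1 TPM at ZT0, 54.7 ± 4.8 TPM after 4 h and 63.2 ± 3.9 TPM at ZT8. They were lowest early in the dark, with 51.8 ± 0.73 TPM at ZT12 and 46.5 ± 3.0 TPM 4 h later, and then 56.7 ± 4.6 TPM at ZT20 and 58.7 ± 6.5 TPM at ZT24. The NRF mean at ZT8 was 51.0 ± 9.3 TPM. The 12-h call was lost with median-of-ratios scaling, the deposited values and without replicate 1 (adjusted p = 0.063, 0.084 and 0.092), and the 24-h call under DRF with these scalings and without replicate 2 or 3 (adjusted p = 0.060 to 0.11).

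The fitted peak of Agt was later under NRF than under DRF. The phases were ZT8.27 ± 1.08 h under NRF and ZT3.30 ± 1.08 h under DRF, a shift of -4.97 ± 1.53 h, with amplitudes of 0.30 ± 0.09 and 0.17 ± 0.05. The adjusted p was 0.018 under NRF, 0.024 under DRF and 0.028 for the difference in rhythm. The highest of all groups was NRF ZT8, with 173, 214, 229 and 252 TPM. The lowest was NRF ZT20, with 89.0, 89.7, 130.1 and 159.8 TPM. It did not overlap with NRF ZT8, but both were picked as the extremes. The difference in rhythm was lost with the deposited values (adjusted p = 0.052), without replicate 1, 3 or 4 (0.14, 0.078 and 0.10) and without ZT24 (0.056). The NRF call was lost without replicate 2, 3 or 4 (adjusted p = 0.050 to 0.10) and the DRF call in 5 of 12 alternatives (adjusted p up to 0.19).

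Ace, which makes angiotensin II, peaked early in the dark under both regimens: at ZT14.3 ± 1.1 h under NRF, with an amplitude of 0.19 ± 0.05 and an adjusted p of 0.0081, and at ZT14.1 ± 1.6 h under DRF, with an amplitude of 0.13 ± 0.05 that was not called (adjusted p = 0.13). Mme peaked at ZT15.4 ± 1.3 h under NRF (amplitude 0.12 ± 0.04, adjusted p = 0.056) and at ZT16.1 ± 0.9 h under DRF (amplitude 0.22 ± 0.05, adjusted p = 0.0074). For neither gene was a difference in rhythm called, with adjusted p-values of 0.82 and 0.43. Anpep was called under DRF with a small amplitude of 0.10 ± 0.03 and a phase of ZT12.5 ± 1.4 h (adjusted p = 0.045), and its NRF amplitude was 0.03 ± 0.03. The Ace call was lost without replicate 3 (adjusted p = 0.070), the Mme call without replicate 1, 2 or 3 (0.067, 0.11 and 0.058) and the Anpep call in 7 of 12 alternatives (up to 0.21), among them the replicate block (0.058). The rhythm of Mme under NRF was called in 5 of 12 alternatives: median-of-ratios scaling, the deposited values, limma-voom, and without replicate 1 or 4.

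Ren1, Enpep and Atp6ap2 were called in none of these rhythm tests. The amplitude of Ren1 was 0.07 ± 0.13 under NRF and 0.29 ± 0.13 under DRF (adjusted p = 0.90 and 0.18). Its highest group, DRF ZT8, had 159, 175, 194 and 231 TPM, and its lowest, DRF ZT20, had 60.1, 99.2, 118 and 147 TPM. These groups did not overlap, but they were picked as the extremes of the 14 group means. The extreme groups of all 8 genes did not overlap, so this is a description and no test. In the order of the 14 group means of Ren1, 0 of the 13 neighbouring pairs were apart by more than the larger of their SDs. Each of the 8 genes had at most 1 such pair. No share over all genes is given beside these counts.

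To compare the regimens, levels were averaged over clock time (the mesor), and each time point was then taken alone. The mesor of Agt was higher under DRF by 0.22 ± 0.07 (SE), or 1.16-fold, with an adjusted p of 0.031, and the mesors of the other 7 genes were not called, 1 of 8 against 10.4% of all genes, of which 2.74% were higher and 7.62% lower. With median-of-ratios scaling the counts over all genes of 364 higher and 1012 lower became 637 and 730. Agt ranged from 123 to 221 TPM under DRF with a median of 180.5 TPM, and from 76.7 to 252 TPM under NRF with a median of 147 TPM. Anpep was lower under DRF by 0.09, with an interval of -0.15 to -0.02 and an adjusted p of 0.092. The Agt mesor call was lost without replicate 1, 2 or 4 and without ZT24 (adjusted p = 0.14, 0.16, 0.068 and 0.055). The mesor of Ren1 differed by -0.05 with an interval of -0.34 to 0.23. Of 6 liver markers, which include transcripts made alongside angiotensinogen in liver, Apoc3 was higher and Fgb lower under DRF. Their summed level had a median of 350 TPM under DRF (172 to 517 TPM) and of 273 TPM under NRF (205 to 623 TPM). The median mesor difference of these markers was 0.21, beside 0.22 for Agt. Their part in the regimen difference of Agt was not tested.

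Time point by time point, 6 of the 56 pairs of gene and time were called, against 17.1% of such pairs over all genes. Over all genes the share called was lowest at ZT16 with 5.94% and highest at ZT4 with 28.2%. It was 18.5% at ZT0, where 1 member was called, 15.9% at ZT8 with 1 member and 17.1% at ZT20 with 2 members. At ZT4, 2 members were called. By limma 0 members were called at ZT12 (19% of all genes), ZT16 and ZT24 (15.5%), with 0, 0 and 2 at an unadjusted p under 0.05 and 0 by limma-voom. Agt was higher under DRF at ZT20, with 162, 164, 164 and 181 TPM against 89.0, 89.7, 130.1 and 159.8 TPM under NRF. The groups did not overlap, and the difference was 0.56 ± 0.18 (SE), or 1.47-fold, with an adjusted p of 0.023. At ZT24 the Agt groups did not overlap either, with 186 to 221 TPM against 128 to 172 TPM, but the adjusted p was 0.082. At ZT0 the difference was 0.46 ± 0.18, or 1.38-fold, with overlapping groups and an adjusted p of 0.061. The ZT0 difference was called with median-of-ratios scaling, with the deposited values, without replicate 2 and with the replicate number as a block, and the ZT24 difference without replicate 1. At ZT8 the difference had the opposite sign, -0.21, and was not called (adjusted p = 0.47). At ZT16 the group means of Agt were 141 and 139 TPM. The ZT20 difference missed the threshold without replicate 1, 2 or 4 (adjusted p = 0.11, 0.12 and 0.064, limma).

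Agtr1a differed in opposite directions at neighbouring times. At ZT4 it had 49.4, 52.0, 57.9 and 59.4 TPM under DRF and 60.05, 65.0, 77.8 and 81.2 TPM under NRF, with no overlap and a difference of -0.36 ± 0.10 (adjusted p = 0.0067). At ZT8 it had 58.7, 61.9, 64.7 and 67.7 TPM under DRF and 39.6, 47.3, 57.4 and 59.7 TPM under NRF, with 1 NRF library above the lowest DRF library and a difference of 0.32 ± 0.10 (adjusted p = 0.027). The ZT4 call was lost with median-of-ratios scaling, with the deposited values and without replicate 1 or 3 (adjusted p = 0.059, 0.083, 0.082 and 0.068). The ZT8 call was lost with the deposited values (adjusted p = 0.058) and without replicate 1 or 3, where the differences were 0.17 and 0.28 (adjusted p = 0.34 and 0.22).

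Anpep was lower under DRF at ZT0 and at ZT20. At ZT0 it had 139, 165, 167 and 174 TPM against 185, 187, 188 and 209 TPM under NRF, a difference of -0.26 ± 0.09 with an adjusted p of 0.030. At ZT20 it had 155, 155, 163 and 171 TPM against 175, 188, 199.7 and 203 TPM, a difference of -0.25 ± 0.09 with an adjusted p of 0.037. The groups did not overlap at either time. Atp6ap2 was lower under DRF at ZT4 by 0.19 ± 0.07 (adjusted p = 0.047), with group means of 153 ± 9.6 and 174 ± 20.1 TPM (SD, n = 4) whose ranges overlapped. The ZT0 call of Anpep was lost with median-of-ratios scaling, the deposited values and limma-voom (adjusted p = 0.17, 0.17 and 0.074), and without replicate 3 or 4, where the difference was -0.15 and -0.28. Its ZT20 call was lost when any 1 replicate was left out (adjusted p = 0.061 to 0.19), and the Atp6ap2 call in 6 of 11 alternatives, among them the replicate block (adjusted p = 0.052), with a difference of -0.11 without replicate 1.

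**Figure D3:**
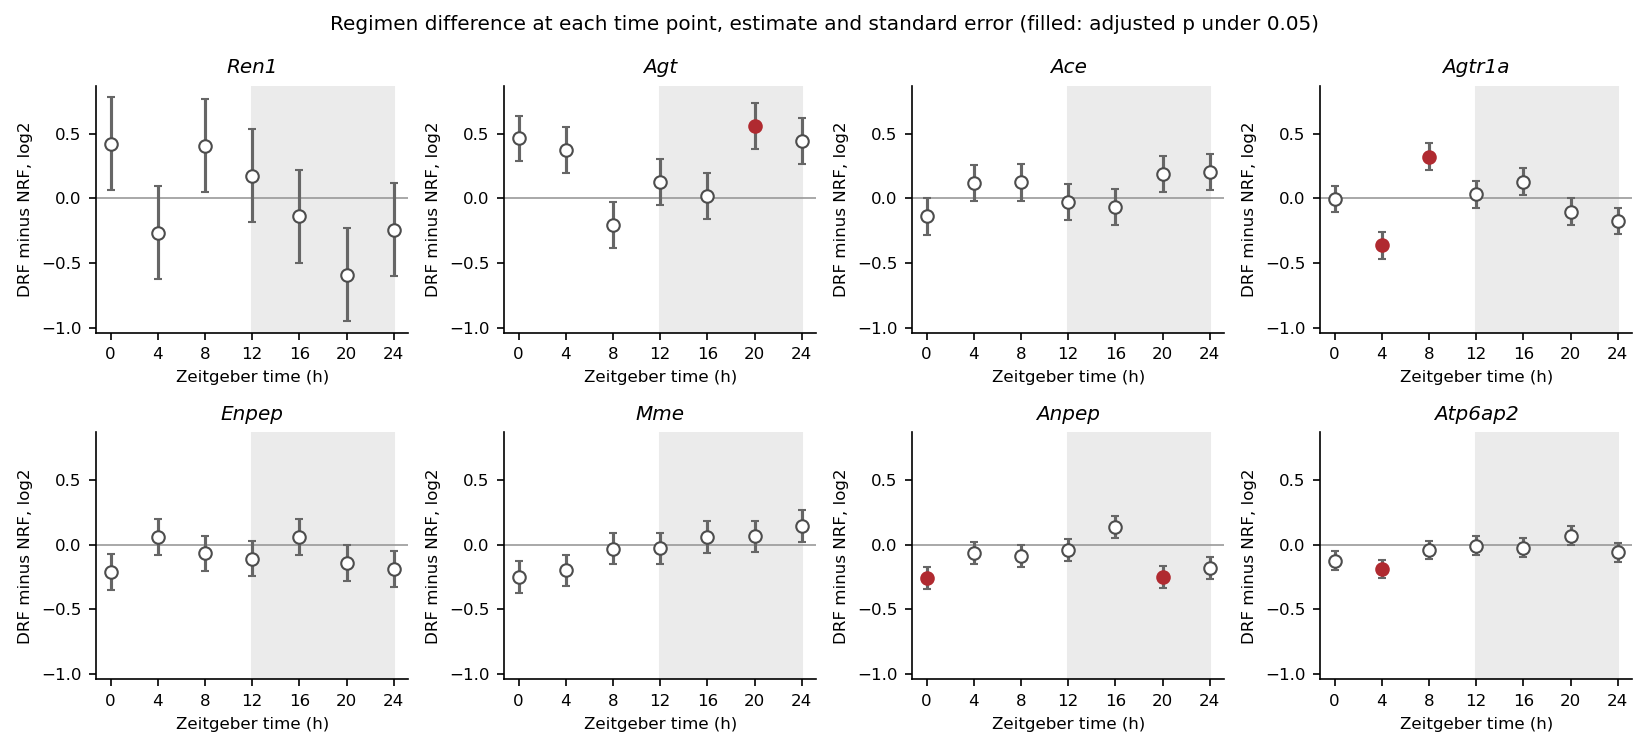
DRF minus NRF on the log2(TPM + 1) scale (vertical axis) at each zeitgeber time in hours (horizontal axis, dark period shaded) for the 8 genes. Circles are estimates with standard errors and 4 libraries a group, filled where the adjusted p was under 0.05. Agtr1a is filled at ZT4 (-0.36) and ZT8 (0.32), Agt at ZT20 (0.56), Anpep at ZT0 (-0.26) and ZT20 (-0.25) and Atp6ap2 at ZT4 (-0.19).

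The first and last sampling times fall at the same hour of the day. Of the 16 pairs of gene and regimen, 0 differed between ZT24 and ZT0 by limma, with 1 (Mme under NRF) at an unadjusted p under 0.05 and 0 by limma-voom, against 0.343% of such pairs over all genes.

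Within groups, Ren1 varied far more than the other members. The within-group SD of its log2(TPM + 1) was 0.53, whereas those of the other 7 genes lay between 0.10 for Atp6ap2 and 0.26 for Agt. Of the 2959 tested genes with a mean of at least 50 TPM, 98.7% had a smaller SD than Ren1, and the median was 0.11. In the group with the widest range, NRF ZT12, the 4 libraries had 65.3, 136, 205 and 309 TPM of Ren1.

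To see what these differences between libraries of a group went with, the deviations of each member from its group mean were correlated with those of 55 marker genes and of the other members, 468 pairs in all, with permutation within groups (100000 resamples, two-sided, smallest p 1e-05). The 55 genes were the tested members of lists for kidney segments, vessels, blood, immune cells and neighbouring tissues. Of the pairs, 112 had an adjusted p under 0.05. All points of a pair come from the same 56 libraries and share their scaling.

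Ren1 went with Akr1b7, an aldo-keto reductase of renin-producing cells, with a Pearson r of 0.75 (permutation p = 1e-05, adjusted p = 0.00029) and a Spearman rho of 0.67 (permutation p = 2e-05, adjusted p = 0.00052). Without the 2 libraries farthest out in Akr1b7, r was 0.68. The other tested markers in its list, for juxtaglomerular cells and macula densa, did not go with Ren1. Gja5, Gja4 and Rgs5 had r of -0.10, -0.11 and -0.20 (permutation, adjusted p = 0.67, 0.62 and 0.36). Akr1b7 had a mean of 6.79 TPM and, unlike Ren1, was called between dark and light, with a difference of -0.64 ± 0.10 (adjusted p = 7.6e-07), while the interval of Ren1 included 0; whether the genes differ in this was not tested. Ren1 also went with Agtr1a (r = 0.58, permutation p = 2e-05, adjusted p = 0.00045, and rho = 0.55, permutation p = 0.0001, adjusted p = 0.0016), and r was 0.54 without the 2 farthest libraries. Some markers of the medulla and collecting duct moved with both genes. Ren1 was lower where Aqp2, the water channel of that segment, was high (r = -0.56, permutation p = 3e-05, adjusted p = 0.00054, and rho = -0.52, permutation p = 0.00025, adjusted p = 0.0032), with r = -0.50 without the 2 farthest libraries. For Slc14a2 and Fxyd4 r was -0.45 and -0.46 with Ren1 and -0.45 and -0.58 with Agtr1a. Aqp3 had r = -0.44 with Ren1. Hsd11b2 of the same list went the other way with Ren1 (r = 0.34, permutation p = 0.022, adjusted p = 0.077). The part of these markers in the relation of Ren1 and Agtr1a was not tested.

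**Figure D4:**
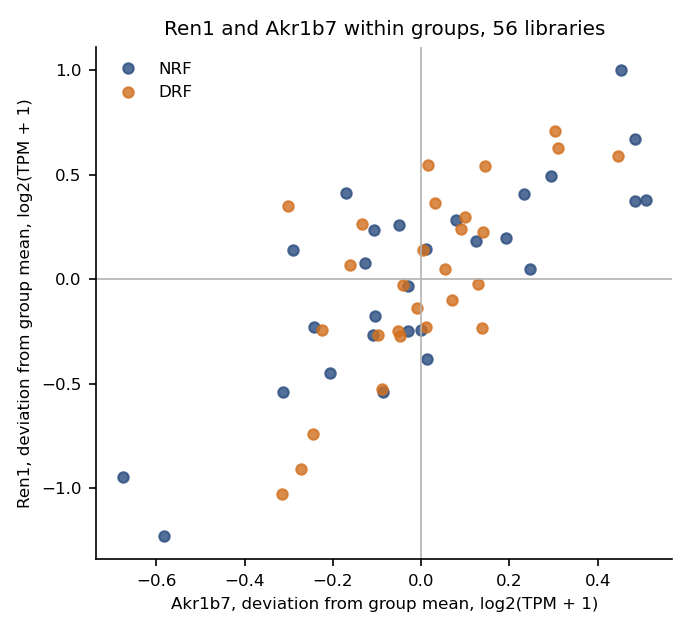
Deviation of Ren1 (vertical axis) and of Akr1b7 (horizontal axis) from their group means on the log2(TPM + 1) scale, 1 point for each of 56 libraries, with NRF in blue and DRF in orange. Libraries high in Akr1b7 were high in Ren1, with r = 0.75.

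Members also deviated with each other. Ace and Mme deviated together (r = 0.72, permutation p = 1e-05, adjusted p = 0.00029, and rho = 0.70, permutation p = 1e-05, adjusted p = 0.00052), with r = 0.64 without the 2 farthest libraries. Enpep and Atp6ap2 did so too (r = 0.72, permutation p = 1e-05, adjusted p = 0.00029, and rho = 0.63, permutation p = 3e-05, adjusted p = 0.00056), with r = 0.64 without them. Enpep and Agt deviated in opposite directions (r = -0.64, permutation p = 0.00023, adjusted p = 0.0028, and rho = -0.57, permutation p = 6e-05, adjusted p = 0.00097), with r = -0.56 without them. In all, 6 of the 28 pairs of members had an adjusted p under 0.05, against 112 of all 468 pairs.

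Markers of other cell types moved with the members in the same way. Agt had r = 0.77 with Csf1r, while Ptprc, Cd79a and Lyz2 of the same immune list had -0.20, -0.18 and -0.0052. Of the proximal tubule list, Aqp1 had r = 0.73 with Agt and Slc34a1 -0.59. Of the thick ascending limb and distal tubule list, Slc12a1 had 0.59 and Slc12a3 -0.68. The adjusted p of Csf1r, Aqp1, Slc34a1, Slc12a1 and Slc12a3 was under 0.05 (permutation). For the 6 liver markers, r with Agt ran from -0.20 for Alb to 0.47 for Apoc3 (permutation, adjusted p = 0.47 and 0.062). Agtr1a was lower where Aqp2 was high (r = -0.68, permutation p = 1e-05, adjusted p = 0.00029, and rho = -0.64, permutation p = 1e-05, adjusted p = 0.00052, with r = -0.63 without the 2 farthest libraries). Ace went with Umod, uromodulin of the thick ascending limb (r = 0.66, permutation p = 1e-05, adjusted p = 0.00029, and rho = 0.65, permutation p = 2e-05, adjusted p = 0.00052, with r = 0.61 without them). The other markers in the list of Umod were mixed. Slc12a1 and Cldn16 had r of 0.43 and 0.41 with Ace (permutation, adjusted p = 0.013 and 0.060). Slc12a3 and Calb1 had r of -0.38 and -0.20 (permutation, adjusted p = 0.093 and 0.43). The number of the 55 marker genes with an adjusted p under 0.05 was 23 for Agtr1a, 22 for Enpep, 17 for Agt, 14 for Atp6ap2, 13 for Ren1, 8 for Mme, 6 for Ace and 3 for Anpep. Only members and markers were correlated, so no share over all genes stands beside these counts.

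Other genes of the pathway were counted in the light and food contrasts for comparison. Of 15 further renin-angiotensin genes, 14 were in the table and 10 were tested. The receptor genes Agtr2, Agtr1b and Mas1 had a mean under 1 TPM, and the gene length of Ctsa could not be checked. Between dark and light 1 of the 10 was higher and 4 were lower, against 9.2% and 25.6% of all genes. Between fed and fasted 3 were higher and 2 lower, against 14.1% and 21.4% of all genes. Agtrap, a protein that binds the type 1 receptor and promotes its internalization, was lower in the dark by 0.13 ± 0.03 (adjusted p = 0.0016), lower with food by 0.16 ± 0.03 (adjusted p = 0.00029) and lower under DRF by 0.10 ± 0.03 in its mesor (adjusted p = 0.0099).

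Among soluble peptidases that cut angiotensins, Dpp3 was lower in the dark by 0.22 ± 0.03 (adjusted p = 9.6e-08) and Nln by 0.18 ± 0.04 (adjusted p = 0.00020). Thop1 was higher with food by 0.17 ± 0.03 (adjusted p = 8.3e-05). The median dark minus light difference of the 10 genes was -0.09, of the 8 members -0.06 and of all genes -0.03, and the median fed minus fasted differences were -0.02, -0.01 and -0.03.

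For the counts that follow, 34.8% of all genes were called between dark and light, 35.4% between fed and fasted and 10.4% in the mesor. Of 10 other brush border peptidases, 1 was higher and 1 lower in the dark, 0 differed with food and 0 in the mesor. The 1 that was lower was Xpnpep2, an aminopeptidase P, by 0.39 ± 0.09 (adjusted p = 0.00033). Of 17 tested subunits of the vacuolar proton pump, the partner of Atp6ap2, 1 was higher and 5 were lower in the dark, 5 were higher and 2 lower with food, and 1 was higher and 2 were lower under DRF in the mesor. Atp6v1b1, the subunit of intercalated cells, had the largest mesor difference of these, -0.22 ± 0.04 (adjusted p = 4.2e-05).

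The genes whose 14 group means were most like those of a member were found among genes with a mean of at least 10 TPM. For Agt they were Mad2l2 (Pearson r = 0.88), Slc38a3 (0.87) and Plpp2 (0.87). For Agtr1a they were Ggt6 (0.92), Snx32 (0.92) and Car12 (0.91), and for Mme Egf (0.90), Acadsb (0.89) and Pias2 (0.86). For Ace they were Vwa1 (0.86), Aadat (0.85) and Sik1 (0.85), for Enpep Cpn1 (0.87), Mpv17 (0.87) and Cyp2c23 (0.85), for Anpep Fkbp3 (0.84), Cs (0.82) and Sfxn1 (0.81), and for Atp6ap2 Kdm4c (0.90), Spg11 (0.89) and Mindy2 (0.86). Ren1 had the least alike neighbours, Echdc2 (0.74), Tmem213 (0.71) and Galk1 (0.69). These are descriptions over 14 means, with the closest of many genes chosen and no test.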

How the data were processed

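Kidney poly(A) RNA was sequenced as paired-end reads of 100 bases (BGISEQ-500), per the labels. The submitters' processing notes name HISAT2, Bowtie2, RSEM, mm10 and GRCm38.p6. The authors deposited 1 table of 17027 genes in 56 libraries and called its values TPM, but the deposited values are a score here: each equals log2(1 + CPM) divided by gene length and scaled to a common sum (999145 to 999753), so the linear TPM assumed in the design was recomputed. Reads were recovered per library with GENCODE M21 exon lengths or searched lengths. In the 86.3% of genes with whole reads, 99.8% of values above 0 were within 0.05 of a whole read. A further 2084 genes, Ren1 among them, lay on hundredths of a read within 0.0012 and were kept, and genes whose length could not be checked (193 with other fractions and 58 with no length) were not tested. One NRF ZT24 column carried a number that is not among the labels' replicates and was used as a library with no number.

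TPM were taken as log2(TPM + 1), and genes with a mean of at least 1 TPM (13274) were fitted with limma 3.58.1 (R 4.3.3, mean-variance trend). The 24-h and 12-h cosines used 28 libraries a regimen, with ZT24 at the phase of ZT0. Mesor, time point, light and food differences were contrasts of 14 group means over 56 libraries, with Benjamini-Hochberg adjustment over all genes at 0.05. Intervals are 95%. The steps were tested on simulated data. Correlations, motif searches and summaries used Python 3.11.15. The members, lists and tests were chosen with earlier results of these data known. All 8 members were named. Of the pathway lists, the rule named by default the called genes with the 3 largest differences, and the others named were chosen after their values were seen. The most alike genes were the 3 with the highest Pearson correlation over group means. Alternatives are in the closing section. Gene names and RefSeq promoters were matched by Entrez identifier, and promoters were found for 7 of the 8 members. The depth of 25.4 to 28.1 M recovered reads per library makes counting error small beside the spread between libraries. Results for some withheld items are not reported here.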

Additional observations from a re-analysis of the deposited data

Results flagged for a closer look

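In 6 of the 112 combinations of member and group, 1 library stood apart from the other 3 by Dixon's test, where chance flags about 1 group in 20. Agt was 181 TPM in DRF ZT20 replicate 1, with the others at 162 to 164 TPM. Ace was 171 TPM in NRF ZT12 replicate 2, with the others at 130.3 to 134 TPM. Agtr1a was 50.7 TPM in NRF ZT0 replicate 4, with the others at 64.5 to 65.1 TPM. Enpep was 137 TPM in DRF ZT0 replicate 2, with the others at 95.2 to 102 TPM. Mme was 83.4 TPM in NRF ZT16 replicate 1, with the others at 109 to 115 TPM. Anpep was 209 TPM in NRF ZT0 replicate 3, with the others at 185 to 188 TPM. The 24-h rhythm of Agt differed between the regimens, with an adjusted p of 0.028 by limma.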

How the results depend on the processing

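Of the 8 genes, Agt, Agtr1a and Mme differed between dark and light in all 11 alternatives tried (3 or 4 genes called, the fourth being Ace), and 12-h components under NRF and differences between ZT24 and ZT0 stayed at 0. Leaving out 1 replicate number at a time gave 1 to 4 genes with a 24-h rhythm under NRF (3 with all libraries), 0 to 3 under DRF (4), 0 to 2 with a differential rhythm (1), 0 to 1 with a 12-h component under DRF (1), 0 to 1 with a mesor difference (1), 1 to 5 called pairs of gene and time point (6) and 0 to 1 gene between fed and fasted (0), the last being Atp6ap2 without replicate 2. Without ZT24 the counts were 2 for the DRF rhythm, 0 for the differential rhythm and 0 for the mesor. The deposited values in place of TPM gave 0 for the differential rhythm, 0 for the 12-h component under DRF and 3 time point pairs, and median-of-ratios scaling gave 0 for that 12-h component. The mesor call of Agt was lost in 4 of 12 alternatives, its differential rhythm in 5 of 12 and the DRF rhythm of Anpep in 7 of 12. The cause was not tested.

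Some small, uncalled log2 differences changed sign. Without ZT24 the mesor difference of Ren1 was 0.0011 (-0.17 to 0.10 with 1 replicate left out) and that of Agtr1a 0.0011 (-0.037 to 0.018). With median-of-ratios scaling, deposited values and limma-voom the mesor difference of Agtr1a was 0.016, 0.014 and 0.0024, its fed minus fasted difference 0.014, 0.015 and 0.0065 (-0.031 to 0.0048 with 1 replicate left out), and that of Anpep 0.023, 0.023 and 0.015 (-0.044 to 0.0083). Leaving out 1 replicate also gave -0.022 to 0.038 for Anpep and -0.0093 to 0.043 for Atp6ap2 between dark and light, and -0.027 to 0.12 for Ace and -0.031 to 0.040 for Enpep between fed and fasted.

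With the replicate number as a block, 3 genes had a 24-h rhythm under NRF, 3 under DRF, 1 a differential rhythm, and 6 pairs of gene and time point were called. Of these calls, Agt at ZT0 was gained, and Atp6ap2 at ZT4 and the DRF rhythm of Anpep were lost. Libraries with the same number did not deviate together (median correlation -0.00054, over 0.1 in 138 of 351 pairs), so the numbers do not pair the samples.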
